A study of Mus musculus with 4 samples.

Results

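Pi16/Cd248-led fibroblasts are heart fibroblasts in which the transcripts Pi16, Cd248 and Sema3c together outnumbered 2 other trios of fibroblast transcripts. They were chosen by measured counts. A barcode of 500 or more UMIs (unique molecular identifiers, 1 per captured RNA molecule) and 250 or more genes, with mitochondrial UMIs of 15% or less, was gated as a fibroblast if it held at least 1 UMI of Pdgfra, at least 5 of Dcn and Gsn together, none of Ptprc, Pecam1 or Cdh5, and at most 2 of Ccl2 and Ccl7 together. A gated cell was Pi16/Cd248-led when Pi16, Cd248 and Sema3c summed to at least 3 UMIs and to more than Cxcl14, Smoc2 and Dpep1 and more than Mfap4, Osr1 and Nkain3. This rule took 1475 of 5480 gated fibroblasts, out of 38910 barcodes that passed the cell filter. It is set against the 3108 gated cells led by Cxcl14, Smoc2 and Dpep1 (Cxcl14/Smoc2-led) and the 510 led by Mfap4, Osr1 and Nkain3 (Mfap4/Osr1-led) by the same rule. The other 387 gated cells were led by no trio.

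The cells came from the hearts of stroke mice (2 samples) and control mice (2 samples) of the strain Ccr2creERT2-Ai14, taken 1 month after the event. All samples share that strain, in which an inducible Cre recombinase is driven by the Ccr2 gene and Ai14 is a Cre-dependent tdTomato reporter. The sources used here give no age, sex or inducer. Enzymatic digestion, a strainer that holds back cardiomyocytes, red cell lysis, removal of dead cells and a sort of live nucleated cells came before 10x Genomics 3′ sequencing. All counts stand in 1 table whose barcodes carry suffixes for 4 libraries, and the labels do not say which suffix is which sample. Stroke and control were therefore not compared, no test was run, and each library is an unlabelled sample. Intervals are 95% intervals that cover counting error only.

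Fibroblasts that carry Pi16, Cd248 and Dpp4 are known from many mouse tissues, where they lie in the adventitia (the outer coat of larger vessels) and in fascia. They are often described as a reservoir from which other fibroblasts can form. Pi16 encodes a secreted and membrane-bound peptidase inhibitor, Cd248 the surface glycoprotein endosialin, and Sema3c a secreted guidance cue. Position in the tissue was not measured here, so adventitial is a label and not a result.

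The libraries held 31955157 to 45834980 UMIs. Library 3 stood apart: it had 487 gated fibroblasts, against 1325 to 2282 in the others, and in its Pi16/Cd248-led cells Xist, the transcript of the inactive X chromosome, was at 1.10 UMIs per 1000000 (CPM), against 649.8 to 717 CPM in the others, while the Y-linked Ddx3y was at 95 CPM, against 0.00 to 0.376 CPM. Only 107 of the 1475 cells came from it. The 1475 cells had 1474 distinct barcode sequences. Of the cells, 11 had a sequence that also occurred in another library, and 1 sequence was Pi16/Cd248-led in 2 libraries. Without library 3 the share of Pi16/Cd248-led cells given next was 27.4%, and the counts of called genes were 138 higher and 122 lower against Cxcl14/Smoc2-led and 218 higher and 279 lower against Mfap4/Osr1-led cells.

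Within the gate the Pi16 trio was seldom alone. Pi16/Cd248-led cells held a median of 18 UMIs of their own trio, 6 of the Cxcl14 trio and 1 of the Mfap4 trio, and in 25 cells (1.69%) both other trios were at 0. The own trio had at least 3 times the UMIs of each other trio in 602 cells (40.8%). In 262 cells (17.8%) it led by 1 or 2 UMIs. Pi16 alone gave most of the lead: it was the highest of the 3 genes in 1336 cells (90.6%), Sema3c in 60, Cd248 in 47, and 32 were tied. Cells led by Sema3c held Dpp4 at 272 CPM (230 to 320) and Cmah at 156 CPM (125 to 194), against 119 CPM (112 to 126) and 63.4 CPM (58.6 to 68.4) in those led by Pi16. Cells led by Cd248 held Dpp4 at 47.5 CPM (28.1 to 75) and Cmah at 23.7 CPM (10.8 to 45).

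The cells nearest to the limits of the rule are given as a description. The 130 cells in which the trio led by 1 UMI held Gfpt2 at 439 CPM and Mfap5 at 1198 CPM. The 152 cells just outside, with a tie, held 433 and 1032 CPM, and the 134 that trailed by 1 UMI held 425 and 1056 CPM. At the lower limit, the 19 leading cells with 3 UMIs of the trio held Gfpt2 at 371 CPM and the 13 with 2 UMIs held 376 CPM. Other genes lay further apart there. Scara5 was at 247 CPM inside the limit and 109.6 CPM outside, and Mfap5 at 762 and 532 CPM. Ly6c1 was at 103 and 47.0 CPM and Dpp4 at 10.3 and 93.9 CPM. These levels come from 19 and 13 cells and have no interval, and those of Dpp4 rest on very few UMIs. The limit on Ccl2 and Ccl7 kept out 96 further cells (6.11% of those that met the rest of the rule).

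Pi16/Cd248-led cells made up 26.9% (25.7 to 28.1, Clopper-Pearson interval) of the gated fibroblasts. The 4 libraries, in order, held 585, 390, 107 and 393 of them, which is 25.6%, 29.4%, 22.0% and 28.4% of their gated fibroblasts. The intervals of library 3 (18.4 to 25.9) and library 2 (27.0 to 32.0) did not overlap. Cxcl14/Smoc2-led cells took 57.4%, 53.9%, 66.9% and 54.6% of the same libraries, and Mfap4/Osr1-led cells 9.68%, 10.8%, 4.31% and 9.02%. As a share of all cells that passed the filter, Pi16/Cd248-led cells took 5.95%, 3.96%, 1.21% and 3.78%, a wider spread than within the gate. They were deeper, with a median of 7466 UMIs, against 6400.5 in Cxcl14/Smoc2-led and 6321.5 in Mfap4/Osr1-led cells. When every barcode was first thinned to 1000 UMIs, 283 of 2314 gated cells (12.2%) were Pi16/Cd248-led, and 176 of them were so without thinning too.

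**Figure D1:**
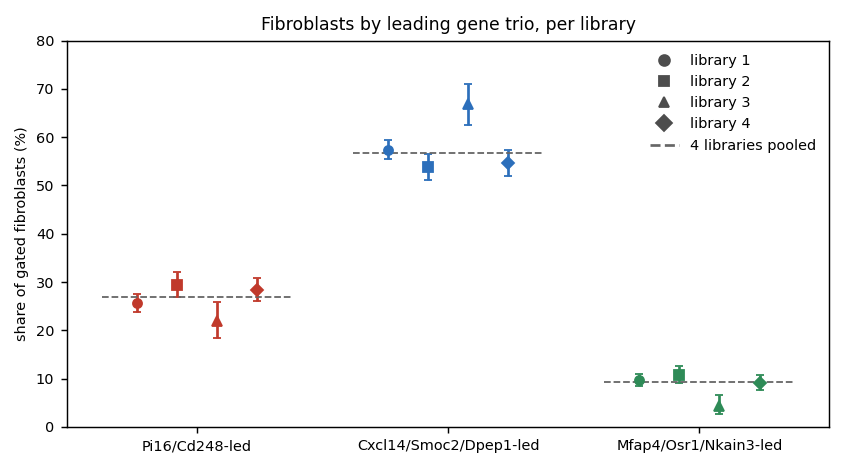
Share of gated fibroblasts (%) led by each trio, with 1 point per library, its exact 95% binomial interval, and the pooled share as a dashed line. The Pi16/Cd248-led share lay between 22.0% and 29.4%, lowest in library 3.

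The trio genes themselves, which chose the cells, are given as a description. Pi16 was at 2334, 2384, 2127 and 2201 CPM in the Pi16/Cd248-led cells of libraries 1 to 4, against 428 to 548 CPM in Cxcl14/Smoc2-led and 406 to 825 CPM in Mfap4/Osr1-led cells. Pooled, Cd248 was at 421, 77.4 and 64.1 CPM and Sema3c at 514, 69.1 and 102 CPM in the 3 populations in the same order. Smoc2 was still at 565 CPM in Pi16/Cd248-led cells, against 1395 CPM in Cxcl14/Smoc2-led cells, whereas Cxcl14 was at 20.8 CPM, against 371 CPM. In GRCm38, with GENCODE genes, Pi16 lies on chromosome 17 from 29317680 to 29330593, Cd248 on chromosome 19 from 5068078 to 5070682 and Sema3c on chromosome 5 from 17574281 to 17730268.

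Gfpt2, Mfap5 and Scara5 are markers of the label that the rule did not use. They were named with earlier results of these data known, so their levels describe the cells and do not check the label. Gfpt2, an enzyme that opens the hexosamine pathway, was at 1045, 866, 696 and 790.1 CPM in the Pi16/Cd248-led cells of libraries 1 to 4. It was at 302, 193, 174 and 243 CPM in Cxcl14/Smoc2-led cells and at 276, 163, 317 and 127 CPM in Mfap4/Osr1-led cells. The lowest Pi16/Cd248-led library thus lay above the highest of either other population, and the pooled ratio was 3.67 (3.55 to 3.79) and 4.27 (3.95 to 4.61).

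Mfap5 encodes a glycoprotein of microfibrils. It was at 1849, 2147, 1489 and 1567 CPM in Pi16/Cd248-led cells, against 582 to 765 CPM in Cxcl14/Smoc2-led and 691 to 1164 CPM in Mfap4/Osr1-led cells, again without overlap between libraries. The ratio was 2.76 (2.70 to 2.82) and 1.65 (1.59 to 1.71). Scara5, a scavenger receptor for ferritin, was at 409, 427, 374 and 379 CPM in Pi16/Cd248-led cells, against 187 to 242 CPM in Cxcl14/Smoc2-led and 25.3 to 71.4 CPM in Mfap4/Osr1-led cells. Its ratio was 1.88 (1.80 to 1.95) and 6.26 (5.46 to 7.21). All 3 markers were thus higher in Pi16/Cd248-led cells. Mfap5 was the least distinct from Mfap4/Osr1-led cells and Scara5 the least distinct from Cxcl14/Smoc2-led cells.

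The share of cells with a UMI ordered the populations likewise for Gfpt2. After thinning to 2000 UMIs, 64.0% (61.5 to 66.5) of Pi16/Cd248-led cells had a Gfpt2 UMI, against 27.2% of Cxcl14/Smoc2-led and 22.7% of Mfap4/Osr1-led cells. Without thinning the shares were 86.1%, 51.0% and 46.3%. Cells gated as endothelial, which should lack the gene and had a median of 2486 UMIs, gave 1.78%. Thinning left out 10, 19, 4 and 6009 cells of these 4 sets with fewer UMIs. Pi16 itself gave 6.30% in those endothelial cells, against 91.8% in Pi16/Cd248-led cells.

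For the comparison over all genes, a gene was called when its pooled CPM differed at least 2-fold, reached 20 CPM in the higher population and differed in the same direction in 4 of 4 libraries. The genes of the rule were left out. Against Cxcl14/Smoc2-led cells, 138 of 6984 genes (1.98%) were called higher and 117 (1.68%) lower in Pi16/Cd248-led cells. Against Mfap4/Osr1-led cells, 206 of 7102 genes (2.9%) were called higher and 244 (3.44%) lower. Both comparisons share the Pi16/Cd248-led cells. Of the genes called higher, 79 were called in both, which is 57.2% of the calls against Cxcl14/Smoc2-led and 38.3% of those against Mfap4/Osr1-led cells. Of those called lower, 26 were shared, or 22.2% and 10.7%. The shares called over all genes are the background for the counts of list members given below. Members under 20 CPM in both populations could not be called, but the list medians include them.

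Genes known from Pi16-positive fibroblasts of other mouse tissues were higher as a group. Of 33 such genes outside the rule, 20 were called higher and 0 lower against Cxcl14/Smoc2-led cells, and 19 higher and 0 lower against Mfap4/Osr1-led cells, of which 28 reached 20 CPM in each comparison. The median log2 ratio of the 33, with 5 CPM added, was 1.21 and 1.5, against -0.01 and 0.06 over all genes tested. The list was drawn up with earlier results of these data known.

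Among its surface proteins, Dpp4, a dipeptidyl peptidase that marks these fibroblasts elsewhere, was at 118, 129.9, 137 and 118 CPM in the Pi16/Cd248-led cells of libraries 1 to 4. It was at 25.2 to 36.7 CPM in Cxcl14/Smoc2-led cells and at 4.78 to 13.2 CPM in Mfap4/Osr1-led cells, a ratio of 4.20 and 15.1. Ly6c1, a membrane-anchored surface antigen, was at 240.0, 321, 287 and 261 CPM, against 47.2 to 88.0 CPM and 6.34 to 34.5 CPM. Ly6c1 has a closely related copy, Ly6c2, so its reads may be split between them.

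Cd55, which protects cells from complement, was at 583 to 685 CPM in Pi16/Cd248-led cells, 222 to 268 CPM in Cxcl14/Smoc2-led and 190.3 to 329.5 CPM in Mfap4/Osr1-led cells. Ly6a, the stem cell antigen Sca-1, was called higher in both comparisons as well (1274, 616 and 349 CPM pooled), and so was Thy1 (60.1, 23.1 and 3.91 CPM). Cd34 was called only against Mfap4/Osr1-led cells (1284, 761 and 582 CPM), with a ratio of 1.69 against Cxcl14/Smoc2-led cells. Ly6c1, Ly6a and Limch1 were also found in the endothelial gate, at 1157, 1132 and 294 CPM. The 8 endothelial markers summed to 116 CPM in Pi16/Cd248-led, 132 CPM in Cxcl14/Smoc2-led and 123 CPM in Mfap4/Osr1-led cells. The fibroblast gate left out cells with Pecam1 or Cdh5, so low sums follow in part from the choice of cells. A part of endothelial RNA in these levels was not tested.

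Tmem100, a small membrane protein known from BMP signalling in endothelium, was at 319.7, 371, 237 and 275 CPM in Pi16/Cd248-led cells, against 21.1 to 33.0 CPM in Cxcl14/Smoc2-led and 58.8 to 95.5 CPM in Mfap4/Osr1-led cells. Limch1, which activates non-muscle myosin, was at 276, 241, 149 and 222 CPM, against 28.3 to 42.2 CPM and 6.34 to 44.8 CPM. Ranked first in both comparisons was Cmah, which makes N-glycolylneuraminic acid, a sialic acid. Cmah was at 66.2, 72.7, 85.1 and 50.01 CPM in Pi16/Cd248-led cells, against 0.422 to 1.95 CPM in Cxcl14/Smoc2-led cells (ratio 50.03, 34.1 to 76.4). In Mfap4/Osr1-led cells it was found in library 2 alone (ratio 109, 30.2 to 905). A Cmah UMI was found in 15.9% of Pi16/Cd248-led cells (median 7466 UMIs), and in 7.58% after thinning to 2000 UMIs, against 0.227% of Cxcl14/Smoc2-led cells, 0.198% of Mfap4/Osr1-led cells and 1.24% of the endothelial gate (median 2486 UMIs).

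**Figure D2:**
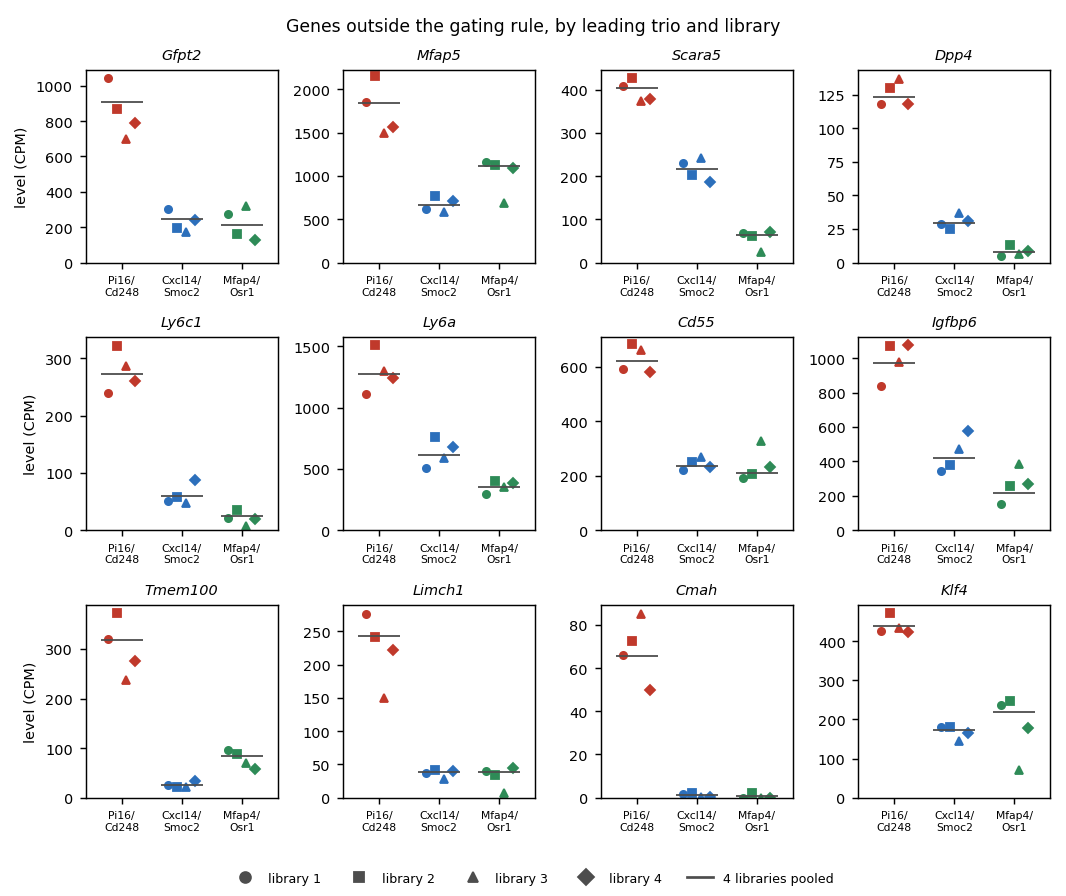
Level (CPM, linear axes from 0) of 12 genes outside the rule in Pi16/Cd248-led, Cxcl14/Smoc2-led and Mfap4/Osr1-led fibroblasts, with 1 symbol per library and a line at the pooled level. For Gfpt2, Dpp4 and Tmem100 the 4 Pi16/Cd248-led libraries lie above all libraries of both other populations.

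The other genes with the highest ratios against Cxcl14/Smoc2-led cells were Opcml, a cell adhesion molecule (74.0 CPM in Pi16/Cd248-led cells, against 10.3 CPM), Efhd1, a mitochondrial calcium-binding protein (199 against 46.1 CPM), Car8, a carbonic anhydrase-related protein (64.2 against 12.4 CPM), the secreted serine protease Htra4 (109 against 24.4 CPM), Mustn1 (53.5 against 10.3 CPM), Tmeff2 (51.8 against 9.94 CPM), the ubiquitin ligase Hecw2 (69.1 against 14.7 CPM), the adhesion receptor Adgrd1 (268 against 72.2 CPM) and Plcxd3 (77.5 against 18.7 CPM). Of these, Opcml, Efhd1, Htra4, Mustn1, Tmeff2, Adgrd1 and Plcxd3 were called higher against Mfap4/Osr1-led cells too. Car8 was not called there (38.2 CPM in Mfap4/Osr1-led cells), and Hecw2 was at 117 CPM there, above Pi16/Cd248-led cells.

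Against Mfap4/Osr1-led cells the list was led, besides Cmah, by Pla1a, a phospholipase that acts on phosphatidylserine (289 CPM in Pi16/Cd248-led cells, against 18.3 CPM), Efhd1, Dpp4, Ly6c1, Adamtsl3 (363 against 40.0 CPM), the long non-coding RNA Morrbid (109 against 9.32 CPM), the membrane-bound Basp1 (156 against 15.3 CPM), Lrrn4cl (109 against 10.5 CPM) and Thy1. Scara5, Limch1, the proprotein convertase Pcsk6 (699 against 117 CPM), Nhsl1 (96.9 against 13.8 CPM) and Tnfaip2 (86.7 against 12.0 CPM) completed it. Morrbid, Pcsk6 and Tnfaip2 did not set Pi16/Cd248-led cells apart from Cxcl14/Smoc2-led cells, with ratios of 0.904, 1.30 and 1.38. Basp1, Lrrn4cl, Nhsl1 and Pla1a were called in both comparisons.

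The scavenging chemokine receptors Ackr2 and Ackr3, which take up chemokines without classical signalling, were called higher in both comparisons. Ackr3 was at 360.3, 448, 459.5 and 374 CPM in Pi16/Cd248-led cells, against 106 to 144 CPM in Cxcl14/Smoc2-led and 108 to 166 CPM in Mfap4/Osr1-led cells. Ackr2 was less abundant, at 32.0 to 51.6 CPM in Pi16/Cd248-led cells, against 1.95 to 3.17 CPM and 0.00 to 7.50 CPM. Duox1, a hydrogen peroxide-forming oxidase, and its maturation factor Duoxa1 were named after their values were seen. Duox1 was at 15.5 to 27.8 CPM and Duoxa1 at 15.5 to 36.5 CPM in Pi16/Cd248-led cells, against 2.54 to 4.30 CPM and 1.74 to 4.53 CPM in Cxcl14/Smoc2-led cells.

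The hexosamine and hyaluronan genes were asked next because Gfpt2 belongs to them. The hexosamine pathway makes UDP-N-acetylglucosamine, with Gfpt1 or Gfpt2 at its first step and Uap1 at its last. Ugdh makes UDP-glucuronic acid, and the synthases Has1 and Has2 join both sugars into hyaluronan, a large matrix polysaccharide to which Tnfaip6 binds. The promoters of the 3 precursor enzymes are shown because these genes were called higher in both comparisons. They are RefSeq sequences of build GRCm38.p6 from 250 bases before to 50 after the start, in the direction of transcription, with capitals at matches on either strand to any of the 6 motifs spelled out after the sequences. Gfpt2 lies on the plus strand at chr11:49793905-49794204, Uap1 on the minus strand at chr1:170174915-170175214 and Ugdh on the minus strand at chr5:65435793-65436092.
Gfpt2: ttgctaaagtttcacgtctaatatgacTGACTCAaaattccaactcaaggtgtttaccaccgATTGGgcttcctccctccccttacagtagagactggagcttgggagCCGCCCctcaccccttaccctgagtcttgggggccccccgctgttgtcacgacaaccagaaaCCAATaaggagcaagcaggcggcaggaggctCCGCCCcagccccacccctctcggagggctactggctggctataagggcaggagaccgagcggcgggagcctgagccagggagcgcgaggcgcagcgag
Uap1: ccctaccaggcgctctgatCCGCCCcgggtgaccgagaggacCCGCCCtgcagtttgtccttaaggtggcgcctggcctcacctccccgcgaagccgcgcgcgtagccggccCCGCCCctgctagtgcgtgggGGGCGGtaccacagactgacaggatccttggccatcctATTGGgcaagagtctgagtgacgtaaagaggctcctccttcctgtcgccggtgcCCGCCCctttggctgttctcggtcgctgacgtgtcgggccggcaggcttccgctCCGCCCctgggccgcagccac
Ugdh: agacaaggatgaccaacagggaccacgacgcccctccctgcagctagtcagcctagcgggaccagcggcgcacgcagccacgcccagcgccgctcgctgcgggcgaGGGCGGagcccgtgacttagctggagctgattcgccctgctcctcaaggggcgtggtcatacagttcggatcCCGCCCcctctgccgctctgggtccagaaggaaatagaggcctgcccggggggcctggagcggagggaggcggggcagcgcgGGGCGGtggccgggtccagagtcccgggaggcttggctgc

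The GC box, GGGCGG, was the motif that all 3 promoters held, with 2 matches in Gfpt2, 6 in Uap1 and 3 in Ugdh, and it is in 35.7% of the 32851 RefSeq promoters. The CCAAT box (CCAAT), in 37.4% of promoters, had 2 matches in Gfpt2 and 1 in Uap1, and the AP-1 motif (TGANTCA), in 7.81%, had 1 match in Gfpt2. The TATA box (TATAAA) is in 13.6% of promoters and the E-box (CACGTG) in 7.15%, and neither had a match in these windows. The cAMP response element (TGACGTCA), in 1.79% of promoters, had none either. GC made up 60.7%, 69.0% and 71.0% of Gfpt2, Uap1 and Ugdh, against a median of 52.7% over all promoters. A match is a run of letters and was not tested as a binding site.

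Summed over the 13 measured genes of the list, the level was 2018, 1621, 1560 and 1432 CPM in the Pi16/Cd248-led cells of libraries 1 to 4. It was 467 to 658 CPM in Cxcl14/Smoc2-led cells and 525 to 774 CPM in Mfap4/Osr1-led cells. The pooled ratio was 3.04 and 2.67, and Gfpt2 is the most abundant member. Against Cxcl14/Smoc2-led cells 5 of the 13 genes were called higher (Gfpt2, Uap1, Ugdh, Has2 and Tnfaip6) and 0 lower, and against Mfap4/Osr1-led cells 3 (Gfpt2, Uap1 and Ugdh) and 0. The median log2 ratio of the 13 genes was 0.29 and 0.03, against -0.01 and 0.06 over all genes tested. Of the 13, 7 reached 20 CPM against Cxcl14/Smoc2-led cells and 8 against Mfap4/Osr1-led cells. The list's median includes the members below 20 CPM, whereas the genes tested all reached it, so the medians cover unlike sets.

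Ugdh was at 377, 309, 262 and 227 CPM in Pi16/Cd248-led cells, against 73.8 to 100.1 CPM in Cxcl14/Smoc2-led and 103 to 120.4 CPM in Mfap4/Osr1-led cells. Uap1 was at 274, 201, 268 and 189.5 CPM, against 69.2 to 83.5 CPM and 58.8 to 107 CPM. The other first-step enzyme, Gfpt1, did not follow Gfpt2, at 55.8 CPM in Pi16/Cd248-led, 60.3 CPM in Cxcl14/Smoc2-led and 46.9 CPM in Mfap4/Osr1-led cells.

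Has2 was at 77.7, 55.7, 37.6 and 54.1 CPM in Pi16/Cd248-led cells, against 12.5 to 17.9 CPM in Cxcl14/Smoc2-led and 29.4 to 44.4 CPM in Mfap4/Osr1-led cells, where its libraries overlapped. Its antisense neighbour Has2os was called higher in both comparisons (88.0, 33.4 and 37.3 CPM). The sources used here do not say whether counting used strand, and without strand reads of Has2 and Has2os cannot be told apart. Has1 was at 15.8, 2.97 and 23.2 CPM pooled. Tnfaip6 was at 118, 79.0, 188 and 48.1 CPM in Pi16/Cd248-led cells, above Cxcl14/Smoc2-led cells (27.8 to 44.2 CPM) but not above Mfap4/Osr1-led cells (70.0 to 119 CPM). The hyaluronan receptor Cd44 was at 32.9, 25.9 and 25.9 CPM and was not called.

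**Figure D3:**
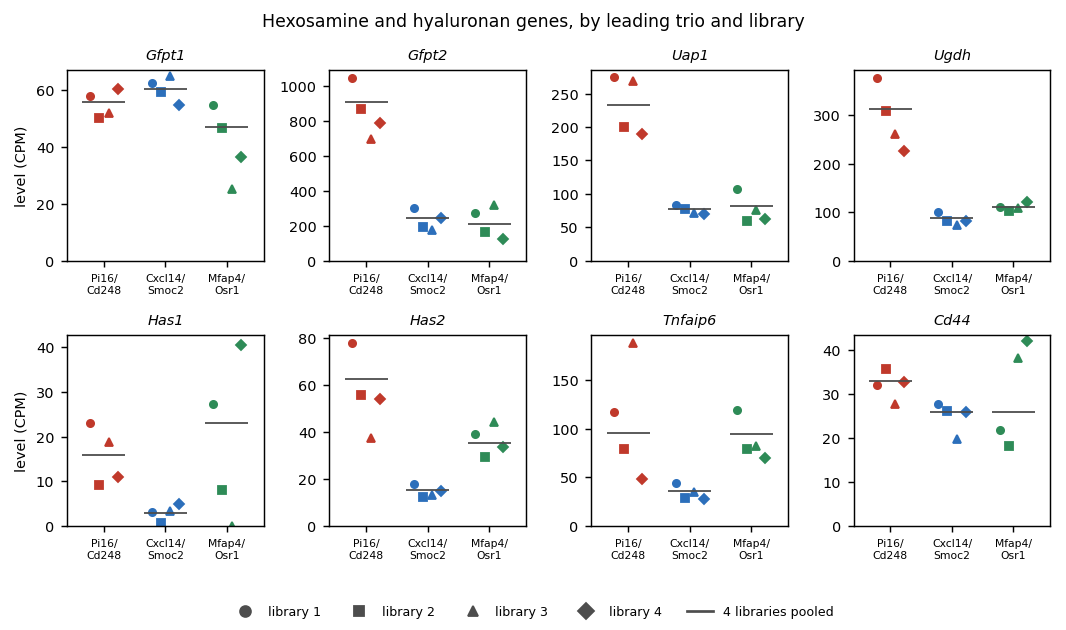
Level (CPM, linear axes from 0) of 8 hexosamine and hyaluronan genes by population, with 1 symbol per library and a line at the pooled level. Gfpt2, Uap1 and Ugdh are highest in Pi16/Cd248-led cells in every library, Gfpt1 and Cd44 are not.

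Microfibril genes differed in a selective way. Fbn1, the main protein of microfibrils, was at 1612, 1472, 1403 and 1153 CPM in Pi16/Cd248-led cells, against 559 to 753 CPM in Cxcl14/Smoc2-led and 532 to 596 CPM in Mfap4/Osr1-led cells. Efemp1 (fibulin-3) was at 179, 64.2 and 43.9 CPM pooled and Emilin2, an elastic fibre-associated glycoprotein, at 78.0, 23.9 and 16.2 CPM, and both were called higher in both comparisons. Fbn2 went the other way against Cxcl14/Smoc2-led cells, at 3.50 CPM, against 29.0 CPM.

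Elastin itself did not mark the population. Eln was at 175 to 300.5 CPM in Pi16/Cd248-led and 162 to 263 CPM in Cxcl14/Smoc2-led cells, and it was called lower against Mfap4/Osr1-led cells, which held 716 to 1319 CPM. Of the 21 elastic fibre and microfibril genes, 19 reached 20 CPM in each comparison. Against Cxcl14/Smoc2-led cells 5 were called higher and 1 lower, beside 1.98% and 1.68% of all genes tested. Against Mfap4/Osr1-led cells 4 were called higher and 3 lower, beside 2.9% and 3.44%. The median log2 ratios were 0.12 and -0.14. The lysyl oxidase Loxl2 was called higher against Mfap4/Osr1-led cells alone (158 CPM, against 29.8 CPM), where Fbln1 (504 against 1213 CPM) and Fgl2 (44.2 against 159 CPM) were called lower.

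The abundant fibrillar collagen gene Col3a1 was close to level, whereas Col5a3 was not. Col3a1 was at 1712, 2194, 2509 and 1474 CPM in Pi16/Cd248-led cells, against 1608 to 2165 CPM in Cxcl14/Smoc2-led and 1800.3 to 2693 CPM in Mfap4/Osr1-led cells, with overlapping libraries. Of 21 interstitial collagen and processing genes, Col14a1 was called higher and Col5a3 and Col6a3 lower against Cxcl14/Smoc2-led cells. Col6a3, a chain of the pericellular collagen VI, was at 103 to 127 CPM in Pi16/Cd248-led cells, against 275 to 367 CPM. Col6a6, which is outside this list, was at 38.2 CPM, against 133 CPM. Against Mfap4/Osr1-led cells Col5a3 (121 against 46.9 CPM) and P4ha2, a collagen prolyl hydroxylase (40.9 against 17.4 CPM), were called higher and 0 lower. The list's median log2 ratio was -0.12 and 0.28.

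Basement membrane genes lay between the other populations. Their summed level was 4342 to 5025 CPM in Pi16/Cd248-led cells, 5648 to 6939 CPM in Cxcl14/Smoc2-led and 3349 to 3789 CPM in Mfap4/Osr1-led cells, without overlap. Of 16 genes, only Nid2 was called against Cxcl14/Smoc2-led cells (15 CPM, against 34.4 CPM), while the laminin chains Lama4, Lamb1 and Lamc1 and their linker Nid1 were called higher against Mfap4/Osr1-led cells, and Smoc1 lower. Lamc1, for one, was at 770.4 CPM, against 375 CPM. The median log2 ratio of the list was -0.29 and 0.05.

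Among 12 small leucine-rich proteoglycans and lubricin outside the rule, Prg4 (lubricin) was called higher against Cxcl14/Smoc2-led cells (37.1 CPM, against 7.16 CPM). Mfap4/Osr1-led cells held more Prg4, at 94.7 CPM, and it was not called there. Against Mfap4/Osr1-led cells Aspn was called higher (444 against 220.2 CPM) and Podn lower (42.5 against 100.2 CPM). The list's median log2 ratio was -0.26 and -0.30. Among 22 proteases and inhibitors, Mmp3 (stromelysin) was called lower in both comparisons, at 17.4 CPM in Pi16/Cd248-led cells, against 64.2 and 133 CPM. The aggrecan-cleaving Adamts5 (786 against 201 CPM) and the protease inhibitor Serpine2 (172 against 80.3 CPM) were called higher and Timp3 (752 against 1725 CPM) lower against Mfap4/Osr1-led cells. That list's median log2 ratio was -0.02 and -0.32.

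Of 25 BMP and TGF-beta genes, Nbl1, a secreted BMP antagonist, was called higher (257 against 79.8 CPM) and Bmp4 (51.8 against 105 CPM) and the BMP modulator Bmper (34.5 against 117 CPM) lower against Cxcl14/Smoc2-led cells. Against Mfap4/Osr1-led cells Bmp6 (113 against 34.0 CPM) and Inhbb (25.8 against 8.72 CPM) were called higher, and the BMP target genes Id1, Id2 and Id3 lower (Id3 at 287 against 648 CPM). The list's median log2 ratio was 0.01 and -0.02, and its sum was higher in 4 of 4 libraries in both comparisons (3337, 2495 and 3140.0 CPM). In each comparison 16 of the 25 reached 20 CPM.

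Of 36 growth factors and guidance cues outside the rule, Fgf18 was called higher in both comparisons, at 36.8, 48.2, 43.1 and 42.1 CPM in Pi16/Cd248-led cells, against 8.44 to 14.7 CPM in Cxcl14/Smoc2-led and 6.34 to 11.2 CPM in Mfap4/Osr1-led cells. Angpt1, the ligand of the endothelial receptor Tie2, was called lower in both (65.0, 143 and 155 CPM), and so were Igfbp3 (8.74, 59.6 and 68.6 CPM) and midkine, Mdk (22.5, 49.1 and 126 CPM). In total 2 were called higher and 5 lower against Cxcl14/Smoc2-led cells, with Ntn4, Penk and Ptn as the others, and 3 higher and 5 lower against Mfap4/Osr1-led cells, with Angptl2, Igf1 and Pdgfd among the others. Igf1 was at 215 CPM, against 656 CPM in Mfap4/Osr1-led cells. The median log2 ratio was -0.06 and -0.23. Of the 36 genes, 24 reached 20 CPM against Cxcl14/Smoc2-led cells and 23 against Mfap4/Osr1-led cells. Over all genes tested, 1.68% and 3.44% were called lower in these comparisons. The list's sum was lower in 4 of 4 libraries in both comparisons, at 4434 CPM in Pi16/Cd248-led, 5797 CPM in Cxcl14/Smoc2-led and 6502 CPM in Mfap4/Osr1-led cells.

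Of 21 Wnt ligands and antagonists, the intracellular Wnt modulator Dact2 was called higher in both comparisons (37.7, 4.87 and 5.71 CPM). Frzb was called lower against Cxcl14/Smoc2-led cells, and Sfrp2 (27.8 against 189 CPM), Dkk3 (45.5 against 204 CPM) and Rspo1 lower against Mfap4/Osr1-led cells. The list's median log2 ratio was 0.19 and 0.00, and its sum was 630.0, 661 and 958 CPM, lower in 4 of 4 libraries against Mfap4/Osr1-led cells. Only 9 of the 21 reached 20 CPM against Cxcl14/Smoc2-led cells and 11 against Mfap4/Osr1-led cells. Of 18 measured chemokines, cytokines and alarmins outside the rule, none was called against Cxcl14/Smoc2-led cells, and Il11ra1 was called lower against Mfap4/Osr1-led cells (132 against 322 CPM). Of the 18, only 8 reached 20 CPM in the comparison with Cxcl14/Smoc2-led cells and 7 in that with Mfap4/Osr1-led cells. The alarmin Il33 was at 75.5 to 109 CPM in Pi16/Cd248-led cells, against 41.4 to 63.6 CPM in Cxcl14/Smoc2-led cells, a ratio of 1.75, under the limit of 2. That list's median log2 ratio was 0.04 and 0.18, whereas its sum was lower in 4 of 4 libraries in both comparisons (641, 831 and 849 CPM).

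Of 17 complement genes, C7, a part of the membrane attack complex, and the complement inhibitors Cd55 and Cd59a were called higher against Cxcl14/Smoc2-led cells and 0 lower, with a median log2 ratio of 0.00. C7 was at 78.8, 98.2, 300.5 and 123 CPM in Pi16/Cd248-led cells, against 15.2 to 101 CPM in Cxcl14/Smoc2-led cells, and library 3 was the highest in both. Against Mfap4/Osr1-led cells Cd55 was called higher, with a median of -0.06. Only 8 of the 17 reached 20 CPM against Cxcl14/Smoc2-led cells and 10 against Mfap4/Osr1-led cells, and the medians include the others.

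Lipid and retinoid genes were lower in sum. The 20 genes summed to 3313 to 3657 CPM in Pi16/Cd248-led cells, 5258 to 6098 CPM in Cxcl14/Smoc2-led and 10038 to 12564 CPM in Mfap4/Osr1-led cells. Apoe, a lipid carrier, gave most of the difference: it was at 1350.4, 1172, 866 and 1005 CPM in Pi16/Cd248-led cells, against 2176 to 2977 CPM and 7205 to 9718 CPM. Lpl, lipoprotein lipase, was called lower against Cxcl14/Smoc2-led (382 against 854 CPM) and higher against Mfap4/Osr1-led cells (171 CPM). Of the retinoid genes, Aldh1a3 (24.7 against 2.83 CPM) and Rbp4 (32.0 against 14.8 CPM) were called higher against Cxcl14/Smoc2-led cells, and Dhrs3 (21.2 against 44.2 CPM) lower against Mfap4/Osr1-led cells. Apod was lower against Cxcl14/Smoc2-led and Ptgs2 against Mfap4/Osr1-led cells. The list's median log2 ratio was -0.04 and -0.11.

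Of 27 transcription factors of fibroblast location, Klf4 was called higher in both comparisons, at 426, 473, 434 and 423 CPM in Pi16/Cd248-led cells, against 145 to 181 CPM in Cxcl14/Smoc2-led and 69.7 to 248 CPM in Mfap4/Osr1-led cells. Its ratio against the second reached the limit of 2. Creb5 was called against Cxcl14/Smoc2-led cells (426 against 170.0 CPM), and Ebf1 (1321 against 556 CPM) and Meox2 (22.1 against 7.52 CPM) against Mfap4/Osr1-led cells. Foxs1 was called lower in both (12.0, 27.2 and 32.8 CPM). The median log2 ratio was 0.09 and -0.19, and 22 of the 27 reached 20 CPM in each comparison.

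Genes of fibroblast activation set Pi16/Cd248-led cells apart from Mfap4/Osr1-led cells more than from Cxcl14/Smoc2-led cells. Of 16 genes, Postn (periostin) was called higher (80.3 against 21.5 CPM) and Fap lower (54.9 against 121 CPM) against Cxcl14/Smoc2-led cells, with a median log2 ratio of 0.22. Against Mfap4/Osr1-led cells Thbs1 was called higher and Postn, Cilp, Comp, Meox1 and Ccn2 lower, with a median of -0.26. Postn was at 202 CPM in Mfap4/Osr1-led cells. Only 8 of the 16 genes reached 20 CPM against Cxcl14/Smoc2-led cells and 9 against Mfap4/Osr1-led cells. Over all genes tested, 2.9% were called higher and 3.44% lower against Mfap4/Osr1-led cells.

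Early response genes, which cells switch on within minutes of a stimulus, were lower than in Mfap4/Osr1-led cells. Of 18 genes, 0 were called higher and 10 lower against Mfap4/Osr1-led cells, with a median log2 ratio of -1.17, and their sum was 3378 to 4673 CPM, against 4448 to 8460 CPM. Fos was at 290.1 CPM, against 725 CPM. In that comparison 16 of the 18 reached 20 CPM, and 3.44% of all genes tested were called lower. Against Cxcl14/Smoc2-led cells only Ier3 was called (67.2 against 25 CPM, higher), with a median of 0.21. Without the 283 cells of sub-cluster 3, described further on, Ier3 was at 27.4 CPM, under the 2-fold limit. Smooth muscle and valve interstitial markers were also lower than in Mfap4/Osr1-led cells. The 5 smooth muscle markers summed to 43.1 to 109 CPM in Pi16/Cd248-led and 133 to 202 CPM in Mfap4/Osr1-led cells. The 6 valve markers summed to 49.6 to 110.1 CPM and 112 to 337 CPM, and Myl9, Cytl1 and Comp were called lower. Against Cxcl14/Smoc2-led cells Tagln and Prg4 were called higher, and the valve sum was higher in 4 of 4 libraries (78.2 against 23.8 CPM). None of these markers was at 0 in Pi16/Cd248-led cells. Their part in the result was not tested.

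Interferon response genes summed to 2906 to 4087 CPM in Pi16/Cd248-led, 2390 to 3354 CPM in Cxcl14/Smoc2-led and 1209 to 1960 CPM in Mfap4/Osr1-led cells. Of 15 genes, 0 were called against Cxcl14/Smoc2-led cells and Ifi27l2a (2877 against 987 CPM) and Ifi205 (65.4 against 14.1 CPM) were called higher against Mfap4/Osr1-led cells, with median log2 ratios of -0.22 and 0.33. General fibroblast markers, ribosomal protein genes and cell cycle genes had no call in either comparison. Only 1 of the 8 cell cycle genes reached the 20 CPM that a call needs, so the lack of calls tells little about them. The 7 general fibroblast markers outside the rule summed to 6656, 7031 and 7263 CPM, 12 ribosomal protein genes to 25589, 24999 and 26554 CPM, and 8 cell cycle genes to 35.6, 45.3 and 45.7 CPM. Of the cell cycle genes 1 was at 0 in Pi16/Cd248-led cells.

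Genes lower against Cxcl14/Smoc2-led cells were led by Ifitm1, an interferon-induced membrane protein, at 3.31, 3.29, 4.42 and 14.7 CPM in Pi16/Cd248-led cells, against 55.1 to 103 CPM. Hsd11b1, which regenerates active glucocorticoid, was at 33.3, 22.4, 67.4 and 38.7 CPM, against 116 to 306 CPM. Gucy1a1, a subunit of the nitric oxide receptor guanylate cyclase, was at 35.1, 29.9, 36.5 and 23.7 CPM, against 86.5 to 136 CPM, and it was lower against Mfap4/Osr1-led cells as well (108 to 154 CPM). The peptide hormone Adm was at 19.9 CPM, against 98.5 CPM, and the peptidase Mme (neprilysin) at 17.7 CPM, against 61.3 CPM. Igfbp3, Mmp3, Bmper and Col6a6, given above, belong here too. The others named by rank were Sept4, a septin (13.2 against 73.3 CPM), Adap2 (12.1 against 62.8 CPM), Tmem176b (16.6 against 70.3 CPM), Rgs17, a regulator of G protein signalling (29.7 against 102 CPM), Gfra1, a receptor of GDNF (40.3 against 133 CPM), and G0s2, an inhibitor of fat breakdown (124 against 370.5 CPM).

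Genes lower against Mfap4/Osr1-led cells were led by Erbb4, a neuregulin receptor, at 14.8, 3.59, 0.00 and 2.26 CPM in Pi16/Cd248-led cells, against 40.5 to 482 CPM. Next came Apoe, Ccl19 (20.7 against 172 CPM, for 1 of 2 features that share the symbol), the actin-associated Pdlim3 (33.7 against 241 CPM), Mmp3, Sfrp2, the cadherin Cdh12 (5.60 against 54.1 CPM) and Igfbp3. The potassium channel subunit Abcc9, also a pericyte marker, was at 17.8 CPM, against 112 CPM, and the carboxypeptidase Cpe at 21.5 CPM, against 122 CPM. Cacnb2, a calcium channel subunit (12.4 against 77.9 CPM), Mdk, Prxl2a (8.83 against 57.4 CPM), Eln and Tst (14.5 against 80 CPM) followed. Library 3 held 21 Mfap4/Osr1-led cells, and 1 cell there gave 96.6% of the haemoglobin UMIs of that population.

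The 5196 gated cells with at least 5 UMIs of the 3 trios were then binned by the share of the Pi16 trio among them, whichever trio led. Most genes given here are among those called between populations led by the same trios, so a difference between the ends follows from their choice. Gfpt2 was at 131, 193, 387, 698, 1249 and 1457 CPM in the 6 bins from under 10% to over 90%. Ly6c1 was at 18.9, 44.2, 98.8, 207, 386 and 433 CPM, and Mfap5 was higher at each of the 5 steps in every library. Lum, the proteoglycan lumican, was higher at 2 of the 5 steps. Tmem100 was level over the lowest 2 bins, at 17.6 and 17.6 CPM, and reached 650.5 CPM in the highest. Cmah appeared late: it was at 0.00, 0.849, 2.65, 16.8, 129 and 223 CPM.

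Going down, Apoe was at 5040.1, 3140.1, 2591, 1314, 731 and 412 CPM over the same bins, and Hsd11b1 and Col6a3 were lower at each of the 5 steps in every library. Collagen genes differed in this: Col6a3 was at 375 CPM in the lowest bin and 42.3 CPM in the highest. Col1a1 and Col3a1 changed less, with Col1a1 at 541 and 376 CPM and Col3a1 at 1972 and 1358 CPM. The basement membrane zone collagen gene Col15a1 was at 820 and 357 CPM. The bins differ in depth, with a median of 6006 UMIs in the lowest and 7929.5 in the highest, and library 3 has 17 and 5 cells in the last 2 bins.

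**Figure D4:**
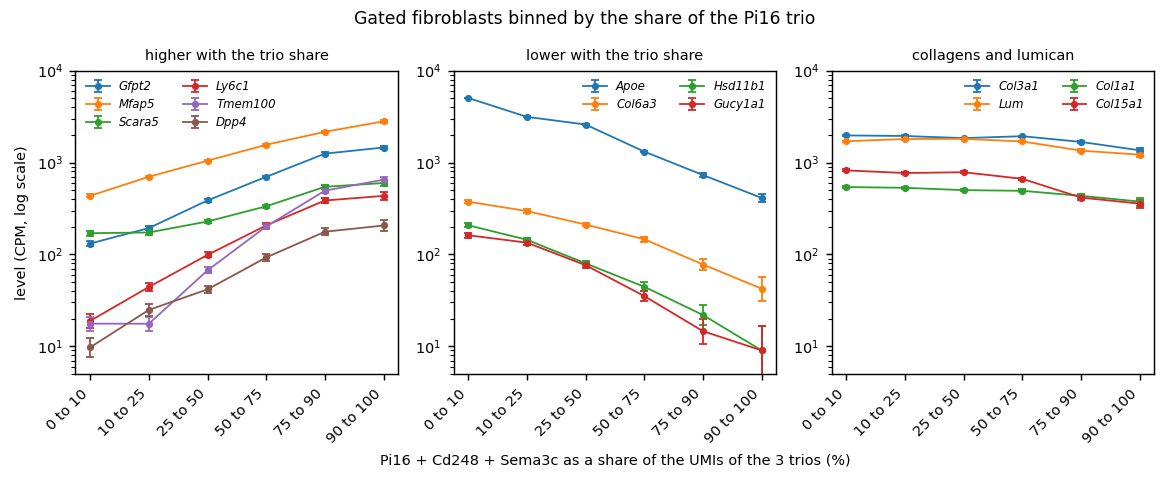
Level (CPM, log axis) of genes outside the rule in 5196 gated fibroblasts binned by the share (%) of the Pi16 trio among the UMIs of the 3 trios; bars are exact 95% Poisson intervals. Gfpt2 is at 131 CPM in the lowest bin and 1457 CPM in the highest, Apoe at 5040.1 and 412 CPM, whereas Col1a1 stays between 376 and 541 CPM.

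Pi16/Cd248-led cells were not uniform. Clustering them without the rule genes (Leiden method, resolution 0.5) gave 7 sub-clusters, against 5 at resolution 0.3 and 15 at 1, and the sub-clusters are described by their leading genes with no name. The largest, sub-cluster 1 (415 cells), had no gene far above the rest. Sub-cluster 2 (397 cells) was led among others by Col8a1 (640 CPM, against 252 CPM in the other cells) and Postn (145 against 59.1 CPM), and it held the lowest median of the Pi16 trio but that of sub-cluster 7, at 12 UMIs.

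Sub-cluster 3 (283 cells) held Apoe at 4158 CPM, against 534 CPM in the other cells, with Pdlim3, Ccn2, Egr3 and Nr4a1, and early response genes at 7607 CPM. It gave 62.8% of the Apoe UMIs and 66.4% of the Ier3 UMIs of the whole population, and without it Apoe was at 534 CPM. It made up 24.6%, 21.3%, 4.67% and 13.0% of the Pi16/Cd248-led cells of libraries 1 to 4. Apoe, Pdlim3 and Ccn2 are among the genes called lower against Mfap4/Osr1-led cells, and the median of sub-cluster 3, 5 UMIs of the Mfap4 trio, was the joint highest.

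Sub-cluster 4 (214 cells) stood at the other end. Its median was 44.5 UMIs of the Pi16 trio and 9056.5 UMIs in all, and it held the highest sub-cluster level of Gfpt2 (1450 CPM), Ugdh (629 CPM), Limch1 (569.9 CPM), Thy1 (157 CPM) and Duoxa1 (84.1 CPM). Cmah was at 241 CPM there, and 63.6% of its UMIs came from these cells. The share of sub-cluster 4 was even across libraries, at 15.6%, 14.6%, 15% and 12.7%.

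Sub-cluster 5 (111 cells) was led by Ptn (314 CPM, against 9.29 CPM), Opcml (592 against 30.1 CPM), Inmt, Tmeff2 and Gpc3. It gave 62.5% of the Opcml and 52.9% of the Tmeff2 UMIs, so the higher level of these 2 genes in the whole population came for the most part from 7.53% of its cells. Without sub-cluster 5 Opcml was at 30.1 CPM and Tmeff2 at 26.5 CPM, against 10.3 and 9.94 CPM in Cxcl14/Smoc2-led cells. Mfap4/Osr1-led cells held 11.7 and 21.4 CPM, so Tmeff2 was then under the 2-fold limit against them. Sub-cluster 5 also held the highest summed level of interstitial collagens and their processing genes among the 7, at 11539.6 CPM, against 5274 to 7507 CPM.

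Sub-cluster 6 (40 cells) was led by interferon-induced genes, with Isg15 at 957 CPM, against 55.5 CPM, and Ifit3 at 711 CPM, against 27.4 CPM. Sub-cluster 7 (15 cells) held markers of other cell types: Upk3b, known from mesothelium, at 1499.6 CPM, against 0.442 CPM in the other cells, Muc16 at 673 CPM, and the pericyte markers Rgs5 at 1156 CPM and Abcc9 at 753 CPM. Of its cells 5 were over the doublet threshold. Leaving the 15 cells out, chosen after seeing the data, gave 134 genes higher and 125 lower against Cxcl14/Smoc2-led cells and 206 higher and 252 lower against Mfap4/Osr1-led cells.

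**Figure D5:**
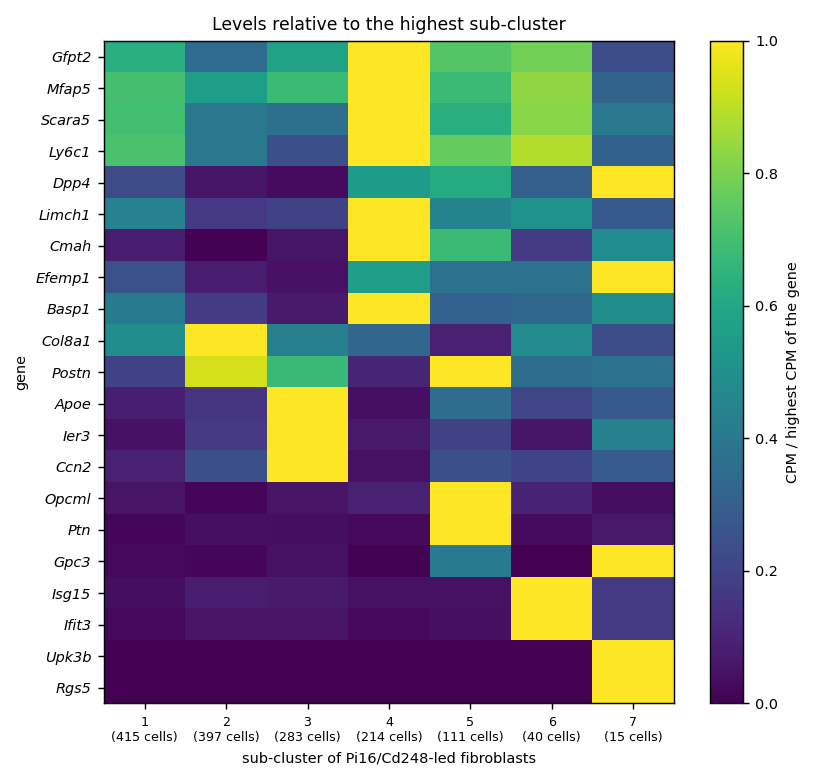
Level of 21 genes in the 7 sub-clusters of Pi16/Cd248-led fibroblasts, as CPM divided by the highest CPM of that gene (color, 0 to 1), with the number of cells under each. Sub-cluster 4 is highest for Gfpt2, Limch1 and Cmah, sub-cluster 3 for Apoe, and sub-cluster 7 for Upk3b and Rgs5.

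Markers of other cell types were summed in the same way. The 7 macrophage markers summed to 10.9 to 42.8 CPM in Pi16/Cd248-led cells, against 17.0 to 53.2 CPM in Cxcl14/Smoc2-led and 12.7 to 52.7 CPM in Mfap4/Osr1-led cells, with none at 0. The 6 pericyte markers summed to 48.3, 57 and 149 CPM, the 7 epicardial or mesothelial markers to 41.4, 11.3 and 17.7 CPM, the 5 Schwann markers to 18.7, 18.5 and 19.9 CPM, the 6 lymphocyte markers to 3.85, 3.75 and 3.01 CPM, the 4 neutrophil markers to 12.8, 15.6 and 15.6 CPM, the 6 cardiomyocyte markers to 44.5, 55.2 and 34.9 CPM and the 5 erythroid markers to 13.1, 15.3 and 343 CPM. The 15 cells of sub-cluster 7 held the epicardial or mesothelial markers at 2824 CPM and the pericyte markers at 2721 CPM. The other sub-clusters held 0.712 to 70.5 CPM and 0 to 48.1 CPM of them. The reporter tdTomato was at 10.5 to 18.8 CPM in Pi16/Cd248-led cells, 7.92 to 20.7 CPM in Cxcl14/Smoc2-led and 7.50 to 25.3 CPM in Mfap4/Osr1-led cells, and at 20.9 CPM in the endothelial gate. Ccr2 itself gave 0.0874 CPM.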

How the data were processed

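Interstitial heart cells were measured by 10x Genomics 3′ v3.1 sequencing. The authors deposited 1 table of whole-number UMI counts for 32286 features; Cell Ranger 7.1.0 and mm10 are named as its tool and build, per the submitters' processing notes. The sources used here do not say how libraries were joined. The joined table was treated as 1 sample with 4 unassigned libraries, so no test, SD or p-value is given. Counts were summed per population and library and divided by their total (CPM). Intervals are exact 95% Poisson, Clopper-Pearson or conditional binomial ones and cover counting error only. A call needed a 2-fold ratio, 20 CPM and 4 of 4 libraries, and the call rule was tested on simulated data. The members and gene lists were chosen with earlier results of these data known. Named genes are the rule genes, the label markers, the 15 highest ratios each way among called genes at 50 CPM or more (5 CPM added), and called or abundant members of lists. Of 433 listed genes, 431 were matched. Doublets, marked by Scrublet in scanpy 1.11.5, were kept and removed in an alternative (8 of the 1475 cells). In library 3 the automatic threshold marked 0 barcodes, and the median of the other thresholds was used. Sub-clusters used 1000 variable genes, 15 components and 15 neighbours (leidenalg 0.10.2). Some list members are not reported here.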

Additional observations from a re-analysis of the deposited data

Results flagged for a closer look

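In 2 cases a list sum over Pi16/Cd248-led cells had a library far from the other 3 by Dixon's criterion. Genes of fibroblast activation summed to 423 CPM in library 4, against 588 to 608 CPM in the others. The 5 sex-linked genes summed to 240 CPM in library 3, against 651 to 717 CPM in the others, and there Xist was at 1.10 CPM and Ddx3y at 95 CPM. Chance flags about 1 in 20 such groups, and 35 values were looked at. The libraries are tied to no sample, so neither value is assigned to stroke or control.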

How the results depend on the processing

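The share of Pi16/Cd248-led cells, 26.9% of gated fibroblasts, lay between 26.1% and 27.8% with each library left out in turn and was 12.2% when cells were thinned to 1000 UMIs before types were assigned. The number of called genes followed the minimum level. With no minimum, 387 genes were higher and 595 lower against Cxcl14/Smoc2-led cells, and 574 higher and 563 lower against Mfap4/Osr1-led cells. With at least 50 CPM the numbers were 81 and 65, and 132 and 123. With levels from cells thinned to 1000 UMIs, 320 genes were higher against Mfap4/Osr1-led cells. With each library left out in turn, 126 to 144 genes were higher and 113 to 123 lower against Cxcl14/Smoc2-led cells, and 210 to 222 higher and 249 to 279 lower against Mfap4/Osr1-led cells. Of the genes in the lists, 38 to 41 were then higher and 17 to 20 lower against Cxcl14/Smoc2-led, and 47 to 49 higher and 39 to 46 lower against Mfap4/Osr1-led cells.

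Alternatives chosen after seeing the data were the removal of sub-cluster 7, with a share of 26.7%, and a rule that the leading trio hold at least 3 times each other trio. The second gave 250 genes higher and 249 lower against Cxcl14/Smoc2-led cells, 34 of the list genes lower there, and 398 genes higher against Mfap4/Osr1-led cells. These counts of genes and this share moved by less under doublet removal, a stricter cell filter, other trio minimums, matched cells, equal weights of libraries or cells, and median-of-ratios scaling. Of 102 ratios of single genes and list sums, 94 moved by more than their counting interval under the 3-times rule, 47 with matched cells, 40 with thinned levels, 30 with libraries weighted equally and 1 to 28 with 1 library left out, and no ratio of at least 2-fold changed direction. The cause of the moves was not tested. No paired analysis was possible because the numbered stroke and control samples are tied to no library; populations were compared within each library, by direction and with no test. The 107 cells of library 3 limit the precision there.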
